A study of Homo sapiens with 24 samples.

Results

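The 36 genes described here carry glucose into the cell, break it down to pyruvate and set what becomes of that pyruvate. They were chosen by name, as glucose and lactate transporters, glycolytic enzymes and members of the PFKFB and PDK families, and all 36 were found among the 18889 genes of the deposited table, each on 1 row. Their RNA was measured by sequencing in 3 human lines of estrogen receptor-positive breast cancer, HCC1500, MDA-MB-175 and ZR-75-30, each grown for 48 hours with 5 mM glucose (low glucose) or 25 mM glucose (high glucose). There were 4 replicates in each of the 6 groups and 24 samples in all. No gene was altered. In every group the treatment medium had no serum, and the cells had been kept at low glucose before the switch. Whether mannitol was added to the low glucose cultures of these samples, to equal the osmolarity, was not stated. No source says whether the replicates were separate cultures, so p-values measure the spread between these samples, which may be technical, and each line stands for 1 tumor.

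Glucose enters through facilitative transporters of the SLC2A (GLUT) family and is trapped by hexokinases as glucose 6-phosphate. Phosphofructokinase makes the committed step, and the bifunctional PFKFB enzymes raise or lower its strongest activator, fructose 2,6-bisphosphate. The lower steps turn triose phosphates into pyruvate with a yield of ATP. Pyruvate is then reduced to lactate by lactate dehydrogenase and exported by monocarboxylate transporters of the SLC16A family, or enters the mitochondrion, where pyruvate dehydrogenase is switched off by PDK kinases and on by PDP phosphatases. FBP1 runs the phosphofructokinase step in reverse. Many tumors make lactate from glucose even when oxygen is present, a habit known as the Warburg effect.

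The sequence letters below show where a short string lay near the start of some of the changed genes. CACGTG is the palindromic E-box bound by basic helix-loop-helix factors such as MYC, and related E-boxes are read by the glucose-sensing factor ChREBP. RefSeq start windows, each reaching from 250 bases before a transcription start to 50 bases after it, were available for 32 of the 36 genes. The letters CACGTG occurred in a window of 7 of these 32 genes (21.9%), beside 8.77% of the 27305 genes with a window. Of single windows, 11.1% of the 63 member windows held it and 7.26% of all 35116 windows. The shorter string ACGTG, searched on both strands and contained in every CACGTG, was found for 18 of the 32 genes (56.2%), beside 24.9% of all genes. By window, ACGTG was in 34.9% of the member windows and 21.4% of all windows. Of the 18 genes called between glucose levels in at least 2 lines, 16 had a window and 5 held CACGTG, and of the 16 other members with a window 2 held it. ACGTG was in 9 of 16 in both sets. The 5 are shown because they hold the longer string, which most of the called members lacked. Each line gives the stretch of the window, up to 1 base before the start, that overlaps no annotated exon, 5′ to 3′ on the gene's strand, with CACGTG in capitals and positions on GRCh37.
HK2, chr2:75062047-75062296, plus strand: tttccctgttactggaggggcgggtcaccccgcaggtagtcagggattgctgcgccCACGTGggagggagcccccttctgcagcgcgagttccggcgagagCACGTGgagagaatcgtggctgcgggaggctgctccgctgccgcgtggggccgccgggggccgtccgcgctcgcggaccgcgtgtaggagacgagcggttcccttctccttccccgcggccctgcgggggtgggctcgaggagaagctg
PFKFB3, chr10:6244657-6244828, plus strand: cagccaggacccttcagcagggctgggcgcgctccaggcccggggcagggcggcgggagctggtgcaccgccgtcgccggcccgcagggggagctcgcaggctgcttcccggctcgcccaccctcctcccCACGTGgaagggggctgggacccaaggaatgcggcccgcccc
LDHA, chr11:18415860-18416106, plus strand: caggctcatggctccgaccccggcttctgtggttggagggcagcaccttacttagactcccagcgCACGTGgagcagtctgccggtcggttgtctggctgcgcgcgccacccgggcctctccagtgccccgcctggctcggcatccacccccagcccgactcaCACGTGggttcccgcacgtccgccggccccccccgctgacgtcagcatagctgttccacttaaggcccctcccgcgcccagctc
GAPDH, chr12:6644308-6644429, plus strand: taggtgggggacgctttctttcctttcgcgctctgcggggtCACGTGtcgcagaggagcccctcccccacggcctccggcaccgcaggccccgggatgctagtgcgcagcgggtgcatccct
ALDOC, chr17:26903967-26904163, minus strand: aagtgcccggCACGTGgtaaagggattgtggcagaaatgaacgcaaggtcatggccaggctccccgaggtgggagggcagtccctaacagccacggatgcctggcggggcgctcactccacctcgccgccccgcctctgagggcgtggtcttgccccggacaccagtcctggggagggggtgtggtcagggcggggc
In HK2 the capitals begin 194 and 149 bases before the start, in LDHA 185 and 87 bases, and in PFKFB3, GAPDH and ALDOC 108, 81 and 240 bases. The HK2, PFKFB3 and GAPDH stretches lie in introns of longer annotated transcripts of the same gene, and those of LDHA and ALDOC lie just upstream of the annotated gene. A match is a run of letters and was not tested as a binding site. The 5 genes did not move as one: at high glucose PFKFB3 rose in all 3 lines, GAPDH fell in ZR-75-30 and MDA-MB-175, and HK2 and LDHA took different directions in different lines, as described below.

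Values are the deposited normalized read counts, and each was a whole number of reads multiplied by 1 factor per sample (100% of values within 0.01 of a whole read). The samples held 9140024 to 17998819 recovered reads, and 3 reads, taken as the floor of detection, corresponded to a value of 0.953 to 2.29. In HCC1500 the low glucose samples had more reads (13190982 to 17998819) than the high glucose samples (9423472 to 12140912), without overlap, and the part of this difference in the results was not tested. High glucose replicate 3 of HCC1500 stood apart: its mean correlation with its group was 0.944, beside 0.990 to 0.995 in the other 23 samples, and 23.9% of genes lay over 1 log2 unit from the group mean. Of 32 members with a mean above 5 in that group, 30 were outside the range of the other 3 samples, 23 above and 7 below. The same count was not taken over all genes. The values of this sample also had a higher sum, 7.32e+06, beside 5.56e+06 to 5.60e+06 in the other 3. HCC1500 tests are therefore also given without this sample. All 8 luminal markers were listed, ESR1 (estrogen receptor) and CDH1 (E-cadherin) among them. CDH1 was high in MDA-MB-175 and HCC1500, with low glucose means of 6498 and 8223, but 55.6 in ZR-75-30. Of the markers of other cell types, 1 of 3 basal, 1 of 3 leukocyte, 1 of 2 endothelial and 3 of 3 fibroblast genes were listed. The leukocyte marker CD14 moved with glucose in HCC1500 (0.431 to 3.04 at low and 8.26 to 26.7 at high glucose), and the endothelial marker VWF in MDA-MB-175 (43.2 to 55.6 and 32.1 to 39.2). The fibroblast marker COL1A1 was lower at high glucose without overlap in HCC1500 (227 to 256 and 169 to 223) and ZR-75-30 (100.01 to 116 and 78.1 to 96.5), as was COL1A2 in MDA-MB-175 (16.3 to 21.3 and 8.20 to 13.7). In ZR-75-30 the summed luminal markers, mostly KRT8, KRT18 and KRT19, also fell without overlap, from 49036 to 53679 at low to 34942 to 40806 at high glucose. They did not move as one: GATA3 and FOXA1 fell too, ESR1 and CDH1 overlapped, and EPCAM rose (1252 to 1377 and 1501 to 1551). In MDA-MB-175 ESR1 (330 to 338 and 255 to 263), FOXA1 and CDH1 fell without overlap and KRT18 rose. In HCC1500 GATA3 and CDH1 fell without overlap and KRT8 and EPCAM rose. The part of these markers in the results was not tested.

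In MDA-MB-175, 15 of the 36 members rose at high glucose and 4 fell, at an adjusted p under 0.05 over all genes tested. These were 41.7% and 11.1% of the members, beside 11.9% of all 17029 genes called higher and 13.7% called lower. In ZR-75-30, 13 of 35 tested members rose and 10 fell (37.1% and 28.6%), beside 23.4% and 22.7% of 15834 genes. In HCC1500, 4 of 34 rose and 5 fell (11.8% and 14.7%), beside 7.46% and 13% of 16361 genes. Among the 4 was PFKP, which was tested in HCC1500 only because of its high glucose values. HKDC1 among the 15 and SLC16A7 among the 13 were mostly under the floor at low glucose. They would not have been tested on their low glucose values alone. Without high glucose replicate 3, 7 of 33 rose and 20 fell (21.2% and 60.6%), beside 20.9% and 37.7% of 16235 genes. The risen share was thus well above the background in MDA-MB-175, and above it by less in ZR-75-30. The fallen share in HCC1500 without that sample was also above it, with values scaled as deposited.

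The median log2 change of the tested members was 0.04 in MDA-MB-175 (-0.02 over all genes), 0.02 in ZR-75-30 (0.01 over all genes) and -0.02 in HCC1500 (-0.06 over all genes). The members' medians thus lay close to those of all genes, with members moving in both directions. Without replicate 3 the HCC1500 medians were -0.17 and -0.12, and rescaling by median of ratios moved the median of all genes there from -0.12 to -0.01. Under that scaling the HCC1500 members without replicate 3 were 9 higher and 13 lower, in place of 7 and 20. Of all 16235 genes, 4665 were called higher and 4577 lower under it, in place of 3390 and 6114. The calls for SLC2A8, TPI1, PGK1, ENO2, PKM, PDHA1 and PDP1 were lost with it, and ALDOA and ALDOC were gained. Over all called genes in HCC1500 the share called higher was 36.4% as deposited and 48.9% by median of ratios, and 35.7% and 50.5% without replicate 3, so small downward changes in HCC1500 depend on the scaling. As these were bulk samples, fewer cells with a transcript and less of it per cell cannot be told apart.

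**Figure D1:**
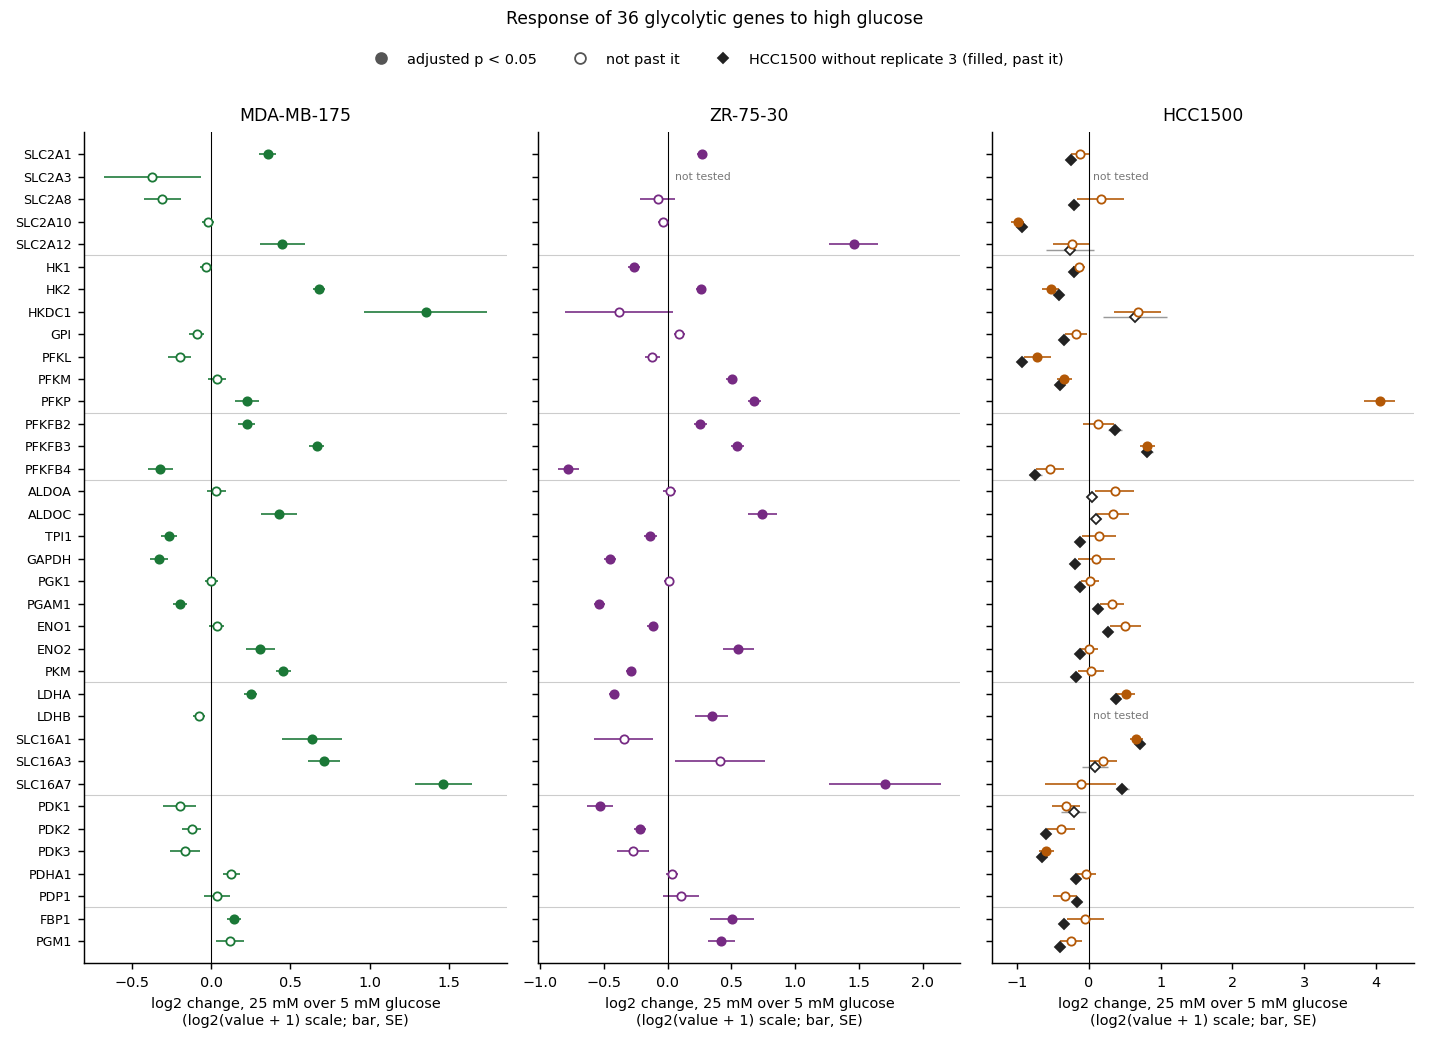
Log2 change from low to high glucose (horizontal axis) of each of the 36 members (rows, grouped by role), 1 panel per line, with bars for 1 standard error. Filled points passed the test and black diamonds give HCC1500 without high glucose replicate 3. PFKFB3 is filled on the right in each of the 3 lines.

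The high and low glucose values of a member did not overlap for 16 of 36 members in MDA-MB-175, beside 26.6% of all tested genes. For ZR-75-30 this held for 20 of 35, beside 42.0%, and for HCC1500 for 11 of 34, beside 32.4%, or 26 of 33 without replicate 3, beside 58.1%. Calls in the same direction in all 3 lines were made for 2 of the 34 members tested in each, PFKP and PFKFB3, beside 5.13% of 14636 genes, and PFKP was tested in HCC1500 only because of its high glucose values. Without HCC1500 replicate 3 there were 6, the PFKFB enzymes PFKFB2 and PFKFB3 and the transporter SLC16A7 upward, and PFKFB4, TPI1 and GAPDH downward, beside 10.5% of 14572 genes. Of these, SLC16A7 in ZR-75-30 was mostly under the floor at low glucose, and the HCC1500 call for TPI1 was lost under median of ratios. The ZR-75-30 call for TPI1 did not hold in every fit that left out 1 sample. MDA-MB-175 and ZR-75-30 shared 16 called members, of which 10 rose in both, 4 fell in both and 2, PKM and LDHA, moved in opposite directions. Of the 15440 genes tested in both lines, 7.35% rose in both, 8.57% fell in both and 1.97% moved in opposite directions.

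Of the glucose transporters, SLC2A1 (GLUT1; ENSG00000117394, chr1:43391024-43424564, minus strand), the main transporter of many cancer cells, rose at high glucose in both ZR-75-30 and MDA-MB-175. In MDA-MB-175 its values, replicates 1 to 4 in order here and below, were 1088, 1029.8, 1045 and 886 at low glucose and 1312, 1304, 1280.1 and 1273 at high glucose. The lowest high glucose sample was above the highest low glucose sample, and the log2 change was 0.36 ± 0.05 (adjusted p = 0.00013). Here and below a log2 change is that from low to high glucose on the log2(value + 1) scale, given ± its standard error, and a mean is given ± SD (n = 4). In ZR-75-30 the values were 1616, 1621, 1566 and 1534 at low glucose and 1965, 1926, 1981 and 1784 at high glucose, again without overlap, with a log2 change of 0.27 ± 0.04 (adjusted p = 1.5e-05). In HCC1500 they were 1858, 2035, 1921 and 1932 at low glucose and 1637, 1616, 2287 and 1631 at high glucose. There 3 high glucose samples lay below every low glucose sample and replicate 3 above them all, so that the log2 change was -0.13 ± 0.12 (adjusted p = 0.52) with 8 samples and -0.25 ± 0.03 (adjusted p = 1.3e-06) without replicate 3. The response differed between the lines (adjusted p = 0.0065 for the interaction of line and glucose, an F test in limma).

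SLC2A10 (GLUT10; ENSG00000197496, chr20:45338288-45364986, plus strand), a transporter found mostly in inner membranes, fell in HCC1500. Its values were 472, 462, 446 and 456 at low glucose and 237, 228, 203 and 258 at high glucose. All 4 high glucose samples were far below every low glucose sample and replicate 3 was the lowest of them. The high glucose mean was 0.504 times the low glucose mean, and the log2 change was -0.99 ± 0.09 (adjusted p = 0.00019), or -0.93 ± 0.05 (adjusted p = 1.2e-11) without replicate 3. In the other 2 lines the means were close, 1269.7 and 1253 in MDA-MB-175 and 988 and 963 in ZR-75-30, and neither passed the test. The interaction had an adjusted p of 4.8e-09.

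SLC2A12 (GLUT12; ENSG00000146411, chr6:134308719-134373762, minus strand), an insulin-sensitive transporter, had the largest rise of the transporters, in ZR-75-30. Its values there were 9.42, 13.1, 10.3 and 12.2 at low glucose and 36.5, 26.3, 31.4 and 36.3 at high glucose, a log2 change of 1.46 ± 0.20 (adjusted p = 6.2e-06). Every high glucose sample was above every low glucose sample by a wide margin. In MDA-MB-175 the values were 25.3, 28.1, 30.2 and 34.1 at low glucose and 46.6, 43.7, 36.3 and 35.8 at high glucose, also without overlap but with a gap smaller than the spread of either group. The log2 change was 0.45 ± 0.14 (adjusted p = 0.031), and the call was lost without low glucose replicate 1 or 2 or high glucose replicate 1 or 2. In HCC1500 the gene was near the floor, at means of 3.52 and 2.86, with a log2 change of -0.24 ± 0.26 (adjusted p = 0.57), or -0.27 ± 0.33 (adjusted p = 0.52) without replicate 3. Of its exon bases, 2852 overlap TBPL1 on the opposite strand, and whether counting used strand was not given in the sources used here. SLC2A3 (GLUT3), a high-affinity transporter, was measurable in MDA-MB-175 (9.64 and 6.69) and under the floor in every sample of the other 2 lines. SLC2A8 (GLUT8) passed the test in none of the 3 lines with all samples, and in HCC1500 had a log2 change of -0.21 ± 0.07 (adjusted p = 0.021) without replicate 3.

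**Figure D2:**
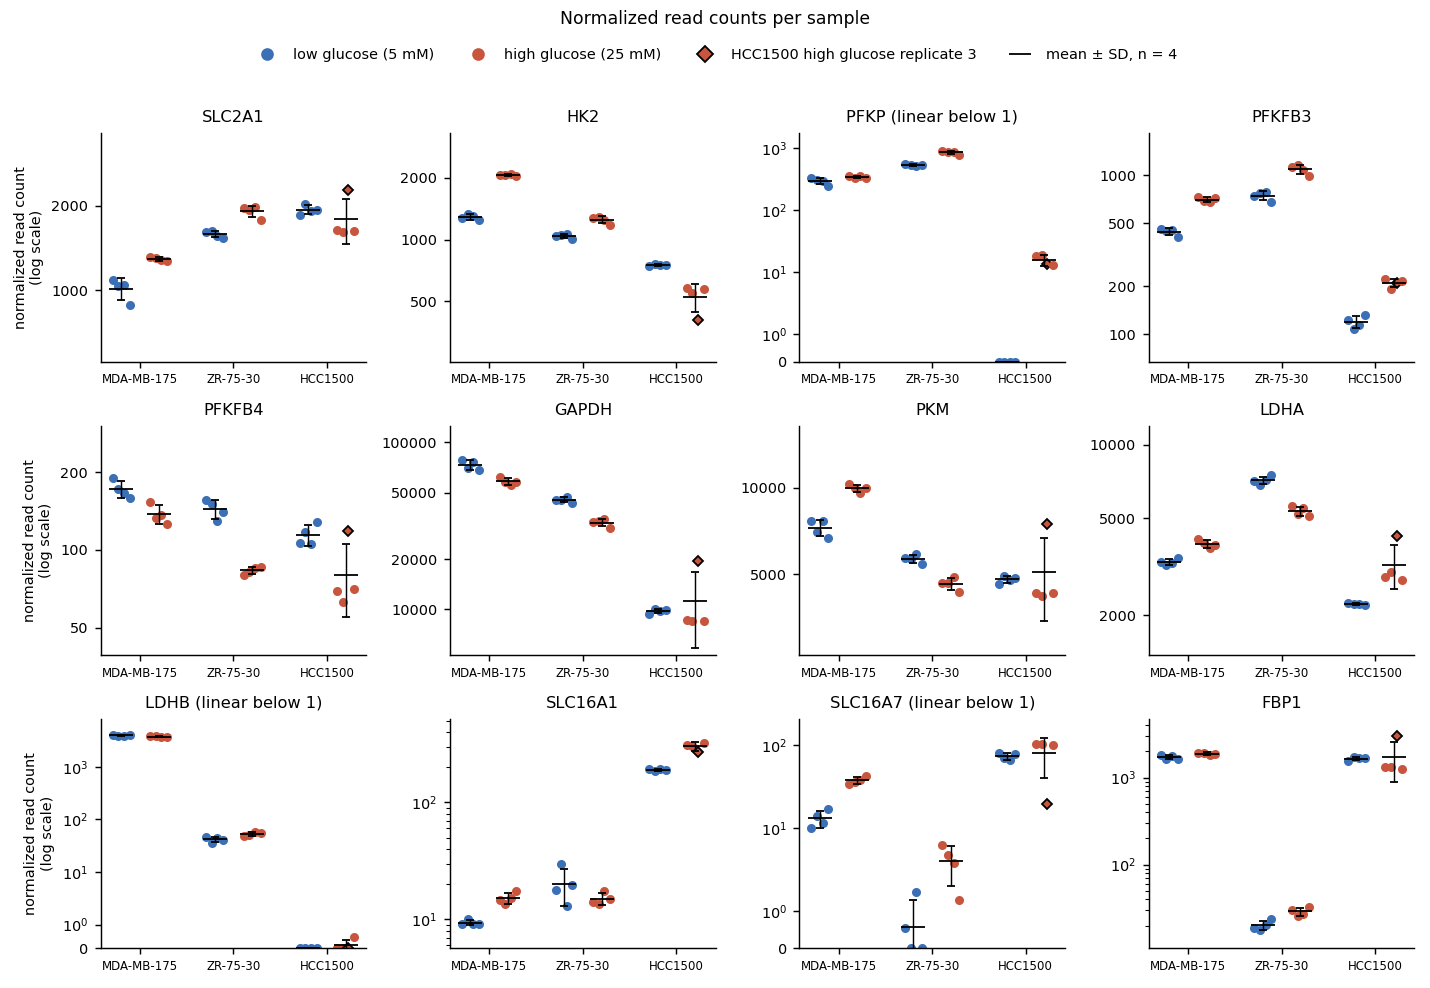
Normalized read counts (vertical axis, log scale) of 12 members in every sample, at low and high glucose in each line, with a diamond for HCC1500 high glucose replicate 3. HK2 is higher at high glucose in the first 2 lines and lower in HCC1500, and in GAPDH, LDHA and PKM the diamond lies far above the other 3 samples.

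Hexokinase 2 (HK2; ENSG00000159399, chr2:75061254-75120486, plus strand), the inducible hexokinase of many tumors, moved in opposite directions. The MDA-MB-175 samples were at 1275, 1333, 1299 and 1242 at low glucose and 2057, 2075, 2083 and 2054 at high glucose, a log2 change of 0.68 ± 0.04 (adjusted p = 2.0e-09). In ZR-75-30 they were 1043, 1058, 1062 and 1005 at low glucose and 1276, 1282, 1252 and 1176 at high glucose, a log2 change of 0.26 ± 0.04 (adjusted p = 2.5e-05). The groups did not overlap in either line, and the rise was the larger in MDA-MB-175, 1.61-fold against 1.20-fold. In HCC1500 the values were 740.0, 763, 753 and 754 at low glucose and 581, 546, 404 and 570.1 at high glucose, with every high glucose sample below every low glucose sample and replicate 3 the lowest. This gave a log2 change of -0.53 ± 0.12 (adjusted p = 0.015) with 8 samples and -0.41 ± 0.03 (adjusted p = 9.9e-09) without replicate 3. With all 8 samples that call was lost under edgeR (adjusted p = 0.081) and DESeq2 (0.054), when samples were scaled to equal totals (0.051) or by median of ratios (0.081), and without low glucose replicate 2 (0.051). The interaction had an adjusted p of 6.5e-08.

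HK1, the constitutive hexokinase, fell in ZR-75-30 from 3199 ± 94.4 to 2671 ± 199.7 (SD, n = 4), a log2 change of -0.26 ± 0.05 (adjusted p = 0.00014), and did not pass the test in MDA-MB-175. In HCC1500 its log2 change was -0.14 ± 0.08 (adjusted p = 0.29) with 8 samples and -0.20 ± 0.03 (adjusted p = 5.1e-05) without replicate 3. HKDC1, a weakly active hexokinase-like protein, was called higher in MDA-MB-175 (log2 change 1.35 ± 0.39, adjusted p = 0.018) at values of 0, 1.34, 0 and 1.53 at low glucose and 2.50, 2.84, 3.51 and 3.15 at high glucose. These are within a few reads of 0, 3 of the 4 low glucose samples were under the floor, and the call was lost without any 1 of low glucose replicates 1 and 3 and high glucose replicate 3. In HCC1500 its log2 change was 0.68 ± 0.33 (adjusted p = 0.18), and 0.64 ± 0.45 (adjusted p = 0.23) without replicate 3. GPI, which interconverts glucose and fructose 6-phosphate, passed the test in none of the lines, apart from HCC1500 without replicate 3 (-0.35 ± 0.03, adjusted p = 7.4e-09).

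The 3 phosphofructokinase genes answered differently. The platelet type PFKP (ENSG00000067057, chr10:3108525-3179910, plus strand) was called higher in ZR-75-30 and MDA-MB-175. In ZR-75-30 its values were 556, 528, 516 and 526 at low glucose and 892, 878, 880.1 and 761 at high glucose, without overlap, a log2 change of 0.68 ± 0.05 (adjusted p = 3.2e-09). In MDA-MB-175 they were 333, 309.6, 293 and 249 at low glucose and 357, 331, 358 and 334 at high glucose. Low glucose replicate 1 lay within the high glucose range there, the log2 change was 0.23 ± 0.07 (adjusted p = 0.035), and the call was lost without any 1 of low glucose replicates 3 and 4 and high glucose replicates 1, 3 and 4. In HCC1500 PFKP was at 0 in all 4 low glucose samples and at 18.3, 18.9, 13.4 and 12.9 at high glucose, at least 14-fold higher when the low group is set to the floor of 3 reads per library. It entered the test in HCC1500 only through its high glucose values (adjusted p = 2.8e-05), so that this call is no support for a rise, and without replicate 3 it was not tested.

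The muscle type PFKM rose in ZR-75-30, where its values were 547, 552, 573 and 526 at low glucose and 803, 772, 811 and 729 at high glucose, without overlap (log2 change 0.50 ± 0.04, adjusted p = 4.0e-08). In HCC1500 it fell, with values of 196, 218, 204 and 205 at low glucose and 149, 149, 186 and 168 at high glucose. All 4 high glucose samples were below the low glucose samples, replicate 3 the closest to them, and the log2 change was -0.34 ± 0.10 (adjusted p = 0.042), or -0.41 ± 0.06 (adjusted p = 1.8e-05) without replicate 3. The liver type PFKL had the highest level per kilobase of the 3 at low glucose in every line. With values scaled as deposited it was called in HCC1500 alone, at 1258, 1452, 1269 and 1403 at low glucose and 677, 704, 1271 and 733 at high glucose. There 3 high glucose samples lay far below the low glucose range while replicate 3 lay among the low glucose samples, and the log2 change was -0.72 ± 0.19 (adjusted p = 0.031) with 8 samples and -0.93 ± 0.05 (adjusted p = 6.8e-12) without it. The log2 changes of PFKL in MDA-MB-175 and ZR-75-30 were -0.20 and -0.12. Scaled to equal totals, PFKL was called lower in all 3 lines. With replicate 3 kept, the HCC1500 calls for PFKL and PFKM were lost when any 1 of the other 7 samples was left out. The interaction had adjusted p-values of 1.8e-13 for PFKP, 2.5e-06 for PFKM and 0.041 for PFKL.

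All 3 PFKFB genes were called in both ZR-75-30 and MDA-MB-175. For HCC1500 it was 1 of 3 with all samples and 3 of 3 without replicate 3. With only 3 genes these counts are read as a description. The shares of all genes called higher and lower were 23.4% and 22.7% in ZR-75-30 and 11.9% and 13.7% in MDA-MB-175. In HCC1500 they were 7.46% and 13% with all samples, and 20.9% and 37.7% without replicate 3. PFKFB3 (ENSG00000170525, chr10:6186897-6296607, plus strand), whose kinase activity far outweighs its phosphatase and so favors fructose 2,6-bisphosphate, rose in all 3 lines. In MDA-MB-175 its values were 459, 446, 453 and 412 at low glucose and 727, 684, 675 and 722 at high glucose, a log2 change of 0.67 ± 0.05 (adjusted p = 5.4e-08). In ZR-75-30 they were 736, 773, 784 and 679 at low glucose and 1121, 1158, 1075 and 988 at high glucose, a log2 change of 0.55 ± 0.05 (adjusted p = 1.1e-07). In HCC1500 they were 124, 107, 115 and 132 at low glucose and 223, 193, 211 and 217 at high glucose, a log2 change of 0.82 ± 0.10 (adjusted p = 0.00084), and 0.82 ± 0.08 (adjusted p = 4.1e-08) without replicate 3. In each line the lowest high glucose value was well above the highest low glucose value, and in HCC1500 replicate 3 lay inside its group. The folds were 1.59, 1.46 and 1.77, and the call held in all 3 lines whichever sample was left out.

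PFKFB4 (ENSG00000114268, chr3:48555117-48599448, minus strand), a bifunctional isozyme, went the other way. In MDA-MB-175 its values were 189, 172, 167 and 159 at low glucose and 153, 133, 137 and 126 at high glucose, a log2 change of -0.32 ± 0.08 (adjusted p = 0.0063). In ZR-75-30 they were 156, 150.1, 129 and 140.5 at low glucose and 79.7, 82.4, 85.4 and 85.7 at high glucose, a log2 change of -0.78 ± 0.08 (adjusted p = 3.8e-07). The groups did not overlap in either line, with the wider gap in ZR-75-30. In HCC1500 the values were 106, 117, 105 and 129 at low glucose and 69.6, 62.7, 118 and 70.6 at high glucose, with 3 high glucose samples far below the low glucose range and replicate 3 inside it. With 8 samples the log2 change was -0.55 ± 0.20 (adjusted p = 0.085), against -0.74 ± 0.09 (adjusted p = 1.2e-06) without replicate 3. Rescaling to equal totals or by median of ratios, edgeR and DESeq2 each called the HCC1500 change with all 8 samples. The gene shares 298 exon bases with UCN2 on the same strand. PFKFB2, a heart-type isozyme, rose in MDA-MB-175 (0.22 ± 0.06, adjusted p = 0.0076) and ZR-75-30 (0.26 ± 0.05, adjusted p = 0.00060), and in HCC1500 had a log2 change of 0.13 ± 0.21 (adjusted p = 0.71) with all samples and 0.36 ± 0.10 (adjusted p = 0.0037) without replicate 3.

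Of the 9 genes from aldolase to pyruvate kinase, 3 rose and 3 fell in MDA-MB-175, while in ZR-75-30 2 rose and 5 fell, and 0 of 9 passed the limma test in HCC1500 with all samples. In HCC1500 1 of the 9 had an unadjusted p under 0.05, edgeR called 1 (ENO1) and DESeq2 2 (ENO1 and PGAM1), and without replicate 3 limma called 2 up and 5 down. With so few genes these counts are read only as a description, beside the shares of all genes called in each line (11.9% up and 13.7% down, 23.4% and 22.7%, 7.46% and 13%). For HCC1500 without replicate 3 the shares of all genes were 20.9% up and 37.7% down. GAPDH (ENSG00000111640, chr12:6643678-6647540, plus strand), which oxidizes glyceraldehyde 3-phosphate and is often taken as a constant reference gene, was among those that fell. For MDA-MB-175 the values were 78738, 70299, 75926 and 68146 at low glucose and 61754, 57944, 55343 and 58144 at high glucose, a log2 change of -0.33 ± 0.06 (adjusted p = 0.00041). In ZR-75-30 they were 45241, 45399.7, 47329.6 and 43428 at low glucose and 33564, 33598, 34593 and 30675 at high glucose, a log2 change of -0.45 ± 0.05 (adjusted p = 3.6e-07). Every high glucose sample of these lines was below every low glucose sample. In HCC1500 they were 9322, 10067, 9832 and 9924 at low glucose and 8649.9, 8529, 19348 and 8554 at high glucose. There 3 high glucose samples were slightly below the low glucose samples while replicate 3 was far above all others, so the log2 change was 0.10 ± 0.26 (adjusted p = 0.82) with 8 samples and -0.19 ± 0.03 (adjusted p = 4.9e-06) without it. The annotation holds 65 GAPDH pseudogenes, 2 of them in the table, and how reads shared with them were counted was not given in the sources used here.

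PKM (ENSG00000067225, chr15:72491370-72524160, minus strand), pyruvate kinase, the last ATP-making step, rose in MDA-MB-175 and fell in ZR-75-30. The MDA-MB-175 values were 7659, 7026, 7666 and 6695 at low glucose and 10279.5, 9994, 9559 and 9979 at high glucose, a log2 change of 0.46 ± 0.05 (adjusted p = 2.9e-06). In ZR-75-30 they were 5678, 5651, 5889.6 and 5435 at low glucose and 4638, 4674, 4894 and 4339.6 at high glucose, a log2 change of -0.29 ± 0.04 (adjusted p = 9.2e-06). The groups did not overlap in either line, with all high glucose samples above in the former and below in the latter. In HCC1500 they were 4626, 4921, 4774 and 4858 at low glucose and 4287, 4183, 7501 and 4289 at high glucose, where replicate 3 was again far above the other samples, and the log2 change was 0.03 ± 0.18 (adjusted p = 0.93) with 8 samples and -0.17 ± 0.03 (adjusted p = 1.3e-05) without it. The interaction had an adjusted p of 0.0058. The values are per gene, so the splice forms PKM1 and PKM2 cannot be told apart.

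PGAM1, phosphoglycerate mutase, fell in ZR-75-30 from 2469.6 ± 45.04 to 1704 ± 106 (-0.54 ± 0.04, adjusted p = 5.8e-09) and, by less, in MDA-MB-175 (-0.20 ± 0.04, adjusted p = 0.0023). In HCC1500 its log2 change was 0.32 ± 0.17 (adjusted p = 0.23) with all samples and 0.13 ± 0.03 (adjusted p = 0.00069) without replicate 3, on the upward side. TPI1, triose phosphate isomerase, fell in MDA-MB-175 (-0.27 ± 0.05, adjusted p = 0.00075) and ZR-75-30 (-0.14 ± 0.05, adjusted p = 0.034). The minor isozymes ALDOC and ENO2, aldolase C and the neuronal enolase, rose in both lines. In HCC1500 ALDOC had a log2 change of 0.34 ± 0.22 (adjusted p = 0.32), and 0.10 ± 0.08 (adjusted p = 0.27) without replicate 3. ALDOC rose from 47.4 to 63.99 in MDA-MB-175 (0.43 ± 0.12, adjusted p = 0.012) and from 59.4 to 101 in ZR-75-30 (0.74 ± 0.11, adjusted p = 2.7e-05). ENO2 had log2 changes of 0.31 ± 0.09 (adjusted p = 0.022) and 0.55 ± 0.12 (adjusted p = 0.0010) in these lines. Their abundant counterparts moved little: ALDOA passed the test in none of the lines, and ENO1 fell only slightly in ZR-75-30 (-0.12 ± 0.04, adjusted p = 0.037). The ZR-75-30 calls for TPI1 and ENO1 and the MDA-MB-175 call for ENO2 did not hold in every fit that left out 1 sample. In HCC1500 ENO1 had a log2 change of 0.51 ± 0.21 (adjusted p = 0.13), and 0.27 ± 0.03 (adjusted p = 1.0e-06) without replicate 3. PGK1, phosphoglycerate kinase, had nearly the same mean in every line, from 3259.7 to 3265, 4217 to 4248 and 4343 to 4435, and was called only in HCC1500 without replicate 3 (-0.12 ± 0.03, adjusted p = 0.0010).

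LDHA (ENSG00000134333, chr11:18416107-18429972, plus strand), the lactate dehydrogenase subunit that favors lactate formation, also split the lines. In MDA-MB-175 its values were 3302, 3212, 3284 and 3430.4 at low glucose and 4116, 3960.2, 3766 and 3882 at high glucose, a log2 change of 0.25 ± 0.04 (adjusted p = 0.00020). In ZR-75-30 they were 7079, 6869, 7161 and 7492 at low glucose and 5603, 5196, 5479.7 and 5081 at high glucose, a log2 change of -0.42 ± 0.04 (adjusted p = 8.2e-08). Both pairs of groups were apart, in opposite directions. In HCC1500 they were 2248, 2223, 2233 and 2198 at low glucose and 2876, 3006, 4227 and 2801 at high glucose, all high glucose samples above all low glucose samples and replicate 3 the highest. Its log2 change was 0.52 ± 0.13 (adjusted p = 0.025), and 0.38 ± 0.03 (adjusted p = 1.4e-09) without replicate 3. With replicate 3 kept, the HCC1500 call was lost when any 1 low glucose sample was left out. The interaction had an adjusted p of 1.0e-05. LDHB (ENSG00000111716, chr12:21788276-21910791, minus strand), the subunit that favors pyruvate formation, differed between lines far more than between glucose levels. Its means in MDA-MB-175 were 3955 and 3749, not passing the test. In ZR-75-30 the values were 45.4, 35.8, 44.4 and 41.2 at low glucose and 47.4, 51.3, 58.6 and 55.5 at high glucose (0.34 ± 0.13, adjusted p = 0.037), a call lost under equal totals (adjusted p = 0.060), under DESeq2 (0.079) and in 5 of the 8 fits that left out 1 sample. In HCC1500 LDHB was at 0 in 7 of 8 samples and at 0.462, a single read, in high glucose replicate 4.

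Of the lactate and pyruvate transporters, SLC16A1 (MCT1; ENSG00000155380, chr1:113454469-113500215, minus strand) was highest in HCC1500 and rose there. Its values were 192, 184, 192 and 191 at low glucose and 307, 306, 267 and 324 at high glucose, without overlap, replicate 3 being the lowest of the high glucose samples. The log2 change was 0.66 ± 0.09 (adjusted p = 0.0012), and 0.72 ± 0.05 (adjusted p = 7.3e-10) without replicate 3. In MDA-MB-175 the gene was low and rose from 9.39 ± 0.445 to 15.2 ± 1.58 (0.64 ± 0.19, adjusted p = 0.021), a call lost under DESeq2 (adjusted p = 0.061) and without high glucose replicate 4. SLC16A3 (MCT4; ENSG00000141526, chr17:80175810-80219005, plus strand), the exporter of highly glycolytic cells, rose in MDA-MB-175, where its values were 120.0, 83.1, 105 and 86.5 at low glucose and 167, 153, 165 and 158 at high glucose. The groups were well apart (0.71 ± 0.10, adjusted p = 7.9e-05). In ZR-75-30 its means were 2.83 and 4.13 and in HCC1500 19.9 and 23.2, and neither passed the test. The HCC1500 log2 change was 0.20 ± 0.19 (adjusted p = 0.51), and 0.08 ± 0.18 (adjusted p = 0.73) without replicate 3.

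SLC16A7 (MCT2; ENSG00000118596, chr12:59989810-60183636, plus strand), a high-affinity transporter of pyruvate and lactate, had the largest rise of all members in MDA-MB-175. Its values there were 10.03, 14.1, 11.4 and 16.8 at low glucose and 33.7, 35.2, 37.9 and 42.6 at high glucose, a log2 change of 1.47 ± 0.18 (adjusted p = 1.6e-05). Every high glucose sample was far above every low glucose sample. In ZR-75-30 the values were 0.554, 0, 1.71 and 0 at low glucose and 6.25, 4.73, 3.82 and 1.37 at high glucose, overlapping and mostly under the floor at low glucose, with a log2 change of 1.70 ± 0.44 (adjusted p = 0.0038). In HCC1500 they were 79.1, 68.9, 65.6 and 77.5 at low glucose and 103, 101, 19.3 and 97.9 at high glucose. There 3 high glucose samples were above the low glucose samples and replicate 3 was far below all, so the log2 change was -0.12 ± 0.49 (adjusted p = 0.90) with 8 samples and 0.46 ± 0.09 (adjusted p = 0.00022) without it.

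Of the 5 genes for pyruvate dehydrogenase and its control, 2 fell in ZR-75-30 and 1 fell in HCC1500, where 22.7% and 13% of all genes fell. In MDA-MB-175 limma called 0 of 5, 1 had an unadjusted p under 0.05, edgeR called 1 (PDHA1) and DESeq2 0. The kinase PDK3 (ENSG00000067992, chrX:24483361-24568583, plus strand) fell in HCC1500, where its values were 174, 154, 166 and 158 at low glucose and 104, 106, 124 and 97.9 at high glucose. All 4 high glucose samples were below the low glucose samples and replicate 3 was the nearest to them. The log2 change was -0.59 ± 0.10 (adjusted p = 0.0049), and -0.66 ± 0.07 (adjusted p = 1.9e-07) without replicate 3. PDK1 fell in ZR-75-30 from 81.6 ± 3.86 to 56.3 ± 4.79 (-0.53 ± 0.10, adjusted p = 0.00037), and in HCC1500 had a log2 change of -0.32 ± 0.20 (adjusted p = 0.31), or -0.21 ± 0.17 (adjusted p = 0.32) without replicate 3. PDK2 fell in ZR-75-30 from 1231 ± 48.6 to 1059.5 ± 69.2 (-0.22 ± 0.05, adjusted p = 0.00088). In HCC1500 PDK2 had a log2 change of -0.39 ± 0.19 (adjusted p = 0.19) with 8 samples and -0.60 ± 0.05 (adjusted p = 1.5e-08) without replicate 3. Of its exon bases, 2113 overlap SAMD14 on the opposite strand. The 3 calls of these kinases with all samples, 1 for each gene, were downward. PDHA1, the catalytic subunit, and the phosphatase PDP1 passed the test in no line with all samples, and in HCC1500 without replicate 3 had log2 changes of -0.17 ± 0.04 (adjusted p = 0.0016) and -0.16 ± 0.06 (adjusted p = 0.032).

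FBP1 (ENSG00000165140, chr9:97365415-97402531, minus strand), fructose 1,6-bisphosphatase of gluconeogenesis, rose in MDA-MB-175 from 1709 ± 91.5 to 1888 ± 59.8 (0.15 ± 0.04, adjusted p = 0.024). In ZR-75-30 its values were 18.8, 17.6, 20.5 and 23.7 at low glucose and 30.2, 25.7, 27.2 and 32.9 at high glucose, a log2 change of 0.50 ± 0.17 (adjusted p = 0.023), which DESeq2 did not call (adjusted p = 0.051). In both lines the call did not survive leaving out every sample in turn. In HCC1500 the values were 1548, 1713, 1670.0 and 1682 at low glucose and 1314, 1312, 2964 and 1262 at high glucose, with 3 high glucose samples below the low glucose samples and replicate 3 above them. The log2 change was -0.05 ± 0.26 (adjusted p = 0.92) with 8 samples and -0.35 ± 0.03 (adjusted p = 7.2e-08) without it. PGM1, which links glucose 6-phosphate with glycogen, rose in ZR-75-30 (0.42 ± 0.10, adjusted p = 0.0027) and in HCC1500 had a log2 change of -0.24 ± 0.15 (adjusted p = 0.30), and -0.40 ± 0.05 (adjusted p = 2.5e-06) without replicate 3.

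The response to glucose differed between the lines for 15 of the 36 members (41.7%), beside 29.3% of 18144 genes, and without HCC1500 replicate 3 for 26 (72.2%), beside 48.6% of genes. The smallest adjusted p-values of the interaction belonged to PFKP, SLC2A10, HK2 and PFKM. HK2 was called in all 3 lines but with HCC1500 opposed to the other 2, LDHA was called in all 3 with ZR-75-30 opposed, and PFKM was called upward in ZR-75-30 and downward in HCC1500. PFKFB3, GAPDH, PFKFB4 and SLC16A3 did not pass the interaction test with all samples, which does not show that the lines responded alike.

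The levels of these genes, like those of genes in general, differed more between lines than between glucose levels. A log2 difference of 1 or more that passed the test was found for 9, 18 and 24 members between ZR-75-30 and MDA-MB-175, HCC1500 and MDA-MB-175, and HCC1500 and ZR-75-30, beside 33.1%, 42.7% and 45.1% of all 17739 genes. Between glucose levels it was found for 2 members in MDA-MB-175, 2 for ZR-75-30 and 1, PFKP, for HCC1500, beside 2.24%, 6.57% and 5.56% of genes. PFKP was tested in HCC1500 only through its high glucose values, so that its call there is no support for a rise. HKDC1 in MDA-MB-175 and SLC16A7 in ZR-75-30, each counted here, would not have been tested on their low glucose values alone. At low glucose, 32 of 36 members differed between ZR-75-30 and MDA-MB-175, 14 higher and 18 lower in ZR-75-30, beside 73.1% of all 17739 genes. Between HCC1500 and MDA-MB-175 31 differed, 13 higher and 18 lower in HCC1500, beside 80.6%, and between HCC1500 and ZR-75-30 32 differed, 13 higher and 19 lower in HCC1500, beside 80.4%. These member shares, 88.9%, 86.1% and 88.9%, are somewhat above the background. Scaling to equal totals turned the last split into 17 and 16 and moved the median of all genes there from 0.25 to 0.56 on the log2 scale. The same scaling moved it from -0.18 to -0.38 between ZR-75-30 and MDA-MB-175.

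The widest gaps were in LDHB, FBP1, PFKP and the monocarboxylate transporters. LDHB was at 4045, 3809.7, 3882 and 4083 in MDA-MB-175, at 45.4, 35.8, 44.4 and 41.2 in ZR-75-30 and at 0 in every low glucose HCC1500 sample. ZR-75-30 was thus lower than MDA-MB-175 by 6.54 ± 0.09 on the log2 scale (adjusted p = 4.7e-17), and HCC1500 was at least 3488-fold lower than MDA-MB-175 and at least 36.8-fold lower than ZR-75-30, against the floor. FBP1 was at 1817, 1651, 1749 and 1617 in MDA-MB-175 and 1548, 1713, 1670.0 and 1682 in HCC1500, but at 18.8, 17.6, 20.5 and 23.7 in ZR-75-30. HCC1500 and MDA-MB-175 did not pass the test against each other in FBP1 (log2 difference -0.05 ± 0.07, adjusted p = 0.56), while HCC1500 was 82.01-fold above ZR-75-30 (log2 difference 6.30 ± 0.07, adjusted p = 3.6e-18). PFKP, at 0 in HCC1500, was at least 261-fold lower there than in MDA-MB-175 and at least 469-fold lower than in ZR-75-30.

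SLC16A1 was 20.2-fold higher in HCC1500 than in MDA-MB-175 (log2 difference 4.20 ± 0.18, adjusted p = 9.8e-12) and 9.45-fold higher than in ZR-75-30 (3.23 ± 0.18, adjusted p = 1.9e-10). SLC16A3 was lower in ZR-75-30 than in MDA-MB-175 by 4.74 ± 0.22 (adjusted p = 3.2e-11). GAPDH was lower in HCC1500 than in MDA-MB-175 by 2.90 ± 0.04 (adjusted p = 1.3e-16), and ENO1 by 2.47 ± 0.04 (adjusted p = 3.8e-16), whereas ENO2 was 5.88-fold higher in HCC1500. HCC1500 also had the lowest PFKFB3 and PFKFB2, PFKFB3 being below ZR-75-30 by 2.63 ± 0.06 (adjusted p = 1.5e-14), and the highest PGM1, 4.42-fold above MDA-MB-175. PDK2 was 4.10-fold higher in ZR-75-30 than in MDA-MB-175.

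**Figure D3:**
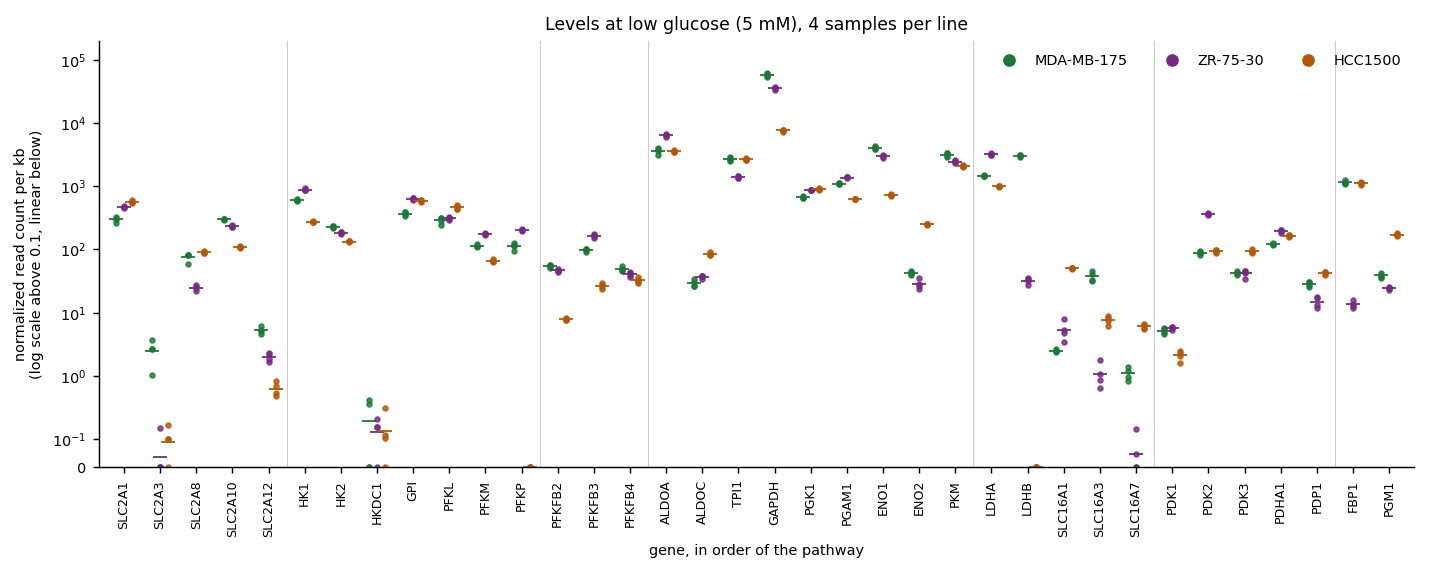
Level of each member at low glucose, as normalized read count per kilobase of transcript (log scale), with 4 points per line. LDHB and PFKP are absent or lowest in HCC1500, FBP1 is low in ZR-75-30 alone, and GAPDH is the highest member in every line.

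Divided by the length of the canonical transcript, the levels can be compared between genes. GAPDH had the highest level of all members in each of the 6 groups, with means per kilobase at low glucose of 57025 in MDA-MB-175, of 35292 for ZR-75-30 and of 7616 for HCC1500. ALDOA, PKM, TPI1, LDHA and ENO1 were also among the higher members at low glucose, with LDHB above TPI1 and LDHA in MDA-MB-175 and FBP1 above LDHA and ENO1 in HCC1500. SLC2A3, HKDC1, PFKP, LDHB and the weaker monocarboxylate transporters stood at the bottom in at least 1 line.

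The isozyme shares, taken per kilobase within a family, show how the RNA was split among its members, and are described without a test. They rest on the canonical transcript lengths, and with the merged length of all exons some orders change. In the HK family HK2 made up 27.4% of the sum at low and 38.2% at high glucose in MDA-MB-175, and 17.3% and 23% in ZR-75-30. In HCC1500 it went down, from 32.8% to 27.3%, or 29.6% without replicate 3. HK1 held the larger share of the family in all 3 lines with canonical lengths, but with merged exon lengths HK2 held 52.8% and HK1 47.1% in MDA-MB-175 at high glucose. In the PFK family PFKP went from 29.2% to 37.6% in ZR-75-30 and from 21.8% to 26.3% in MDA-MB-175, while the PFKL share went from 45.1% to 33.2% and from 56.0% to 50.3%. In HCC1500 PFKL held 87.4% at low and 82.5% at high glucose.

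In the PFKFB family the shares of PFKFB3 and PFKFB4 moved in opposite directions in each line. PFKFB3 made up 48.7% at low and 60.3% at high glucose in MDA-MB-175, 65.4% and 75.3% in ZR-75-30, then 39.7% and 59.7% in HCC1500. PFKFB4 went down, in MDA-MB-175 from 24.2% to 15.1%, in ZR-75-30 from 16.2% to 7.42%, and for HCC1500 from 48.6% to 28.7%. In HCC1500 PFKFB4 thus held the larger share at low glucose, but with merged exon lengths PFKFB3 did, at 44.7% against 42.8%. Of the lactate dehydrogenases, LDHB held 67.3% at low and 62.1% at high glucose in MDA-MB-175, while LDHA held 99% and 98.3% in ZR-75-30 and all of the measured sum in HCC1500. The main monocarboxylate transporter was SLC16A3 in MDA-MB-175 (91.1% and 89.6%) and SLC16A1 in ZR-75-30 (81.4% and 67.9%) and HCC1500 (78.6% and 83.7%). Among the listed glucose transporters SLC2A1 held 43.7% and 51.0% in MDA-MB-175, 64.2% and 68.7% for ZR-75-30, then 74.1% and 76.4% for HCC1500, with SLC2A10 at 44%, 32.1% and 14.1% at low glucose. Without replicate 3 the high glucose shares of HCC1500 were 81.1% for PFKL, 61.4% for PFKFB3, 25.3% for PFKFB4, 83.5% for SLC16A1 and 78.0% for SLC2A1. With merged exon lengths SLC2A10 led the glucose transporters in MDA-MB-175, at 56.7% and 52.2% against 33.0% and 39.4% for SLC2A1.

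**Figure D4:**
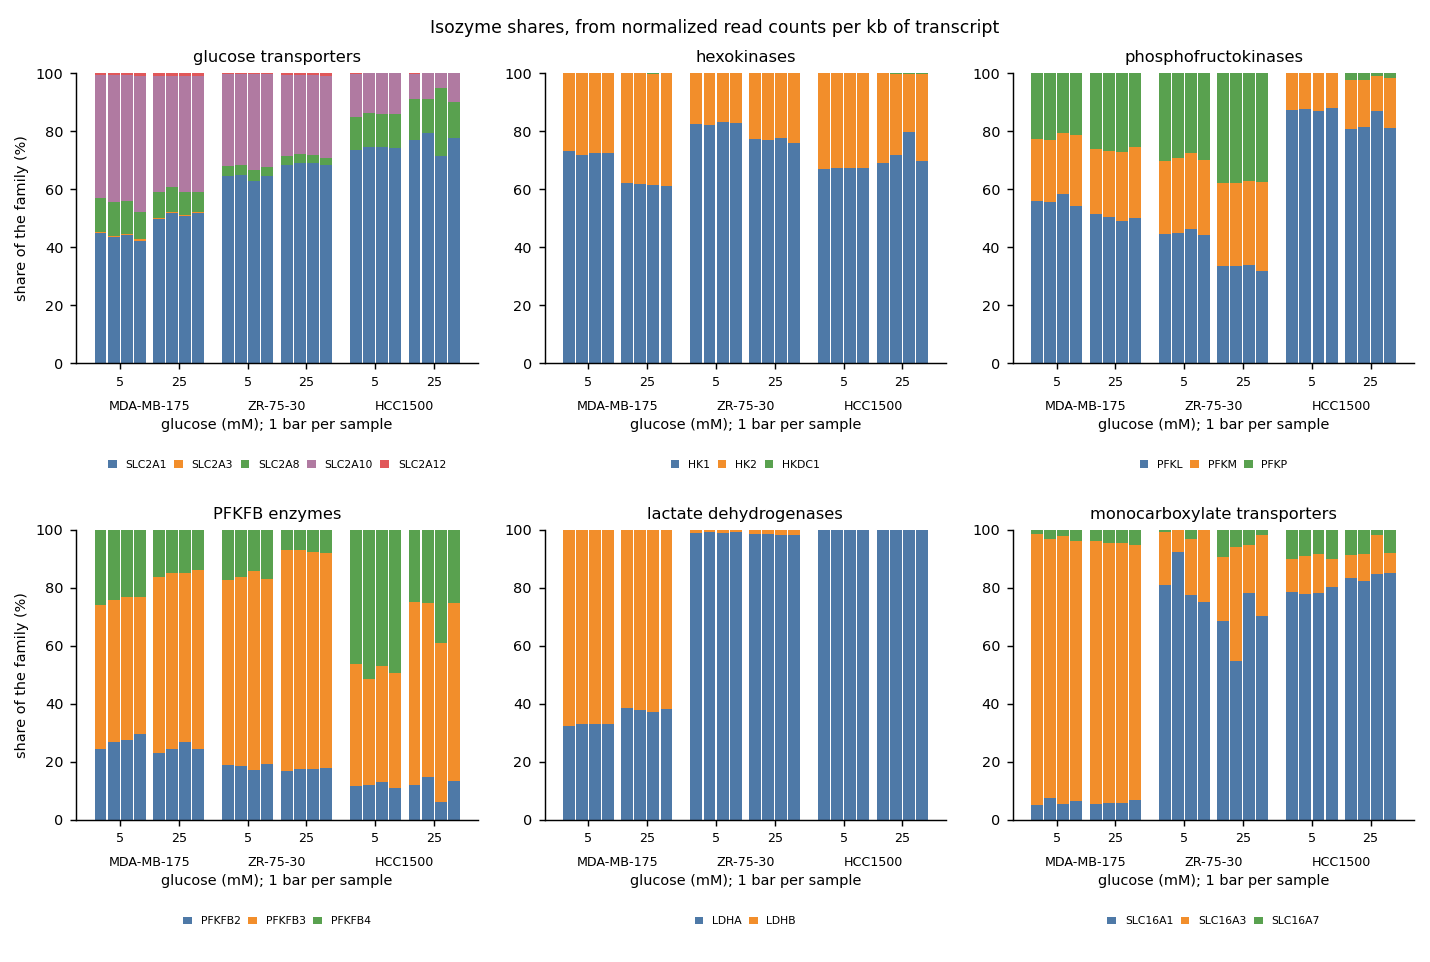
Share of each isozyme in its family's summed level per kilobase (percent, vertical axis) in every sample, for 6 families, as stacked bars from 0. The PFKFB3 part widens at high glucose in all 3 lines, and LDHB is nearly absent outside MDA-MB-175.

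Other genes of the pathway give the wider setting. Of 40 listed, 28 were in the table. In MDA-MB-175 7 rose and 6 fell of the 28 tested, and in ZR-75-30 the counts were the same, 7 and 6. In HCC1500 4 of 27 were called, all of them higher, and without replicate 3 the counts were 8 and 10. The shares of all genes called higher and lower were 11.9% and 13.7%, 23.4% and 22.7%, and 7.46% and 13% in these lines, and 20.9% and 37.7% without replicate 3. The kinase PDK4, which like PDK1 to PDK3 shuts off pyruvate dehydrogenase, rose in MDA-MB-175 from 92.2 to 149 (log2 change 0.68 ± 0.09, adjusted p = 3.5e-05), the opposite direction to the 3 calls of PDK1, PDK2 and PDK3. It was called in HCC1500 too, near the floor, with means of 0.727 and 4.24, and without replicate 3 its log2 change was 1.64 ± 0.40 (adjusted p = 0.0019). BPGM, which makes 2,3-bisphosphoglycerate, rose in MDA-MB-175 from 147 to 267 (0.85 ± 0.07, adjusted p = 1.8e-07). GPD2, the mitochondrial enzyme of the glycerophosphate shuttle, fell in ZR-75-30 from 586 to 394 (-0.57 ± 0.04, adjusted p = 4.6e-09). The transporter gene SLC2A11 rose in ZR-75-30 from 31.3 to 64.4 (1.02 ± 0.13, adjusted p = 4.8e-06). SLC2A4 was also called higher there, near the floor, with means of 1.80 and 6.47 and a log2 change of 1.46. In HCC1500 PC, pyruvate carboxylase, rose from 337 to 569 (0.73 ± 0.16, adjusted p = 0.013, and 0.56 without replicate 3).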

How the data were processed

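RNA of the 24 samples was sequenced on an Illumina HiSeq. The study's methods name Trimmomatic, TopHat, hg19 and Ensembl release 70, whereas the submitters' processing notes name edgeR and hg38. The counter and its strand setting were not given in the sources used here. The authors deposited a normalized signal per gene, which was found to be whole reads times 1 factor per sample. Gene positions came from GENCODE release 44 on GRCh37 (96.3% of gene IDs matched), and start windows from RefSeq (GRCh38.p14).

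Groups came from the sample titles. The main test was limma 3.58.1 (R 4.3.3), applied to log2(value + 1) with a trended variance, for genes of at least 0.5 in at least 4 fitted samples, with Benjamini-Hochberg adjustment over all genes tested and a threshold of 0.05. Fold changes on this scale understate those of low genes. Each line was fitted on its 8 samples, the interaction on all 24 and the levels on the 12 low glucose samples. Reads recovered from the signal were tested with edgeR 4.0.16 and DESeq2 1.42.0, and edgeR called 4402 genes in MDA-MB-175, 7397 genes in ZR-75-30, and 3576 genes for HCC1500. On simulated data with 200 genes changed by a log2 fold of 1, limma recovered 97.5% in MDA-MB-175 (17153 genes), 96% for ZR-75-30 (15664) and 99% for HCC1500 (16662). Of its calls there, 2.99%, 3.03% and 5.71% were false. The simulation gave every gene the same excess spread, changed only genes with enough reads and held no sample set apart. These shares thus do not describe HCC1500 with high glucose replicate 3. Floors cover counting error only. The members, the lists and the tests were chosen with earlier results of these data known. All 36 members are described, with full values for those called in all lines, changed by a log2 of at least 1, called in opposite directions or leading their role. The alternatives were other pseudocounts, filters, scalings, tests, a replicate block, a fold threshold and leaving out each sample.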

Additional observations from a re-analysis of the deposited data

Results flagged for a closer look

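In 202 groups of 4 samples, 28 held a highest or lowest sample set far apart from the other 3 (Dixon's criterion at 95%), where chance flags about 5% of groups. Of these, 18 were the same sample, HCC1500 high glucose replicate 3. It was the highest of its group for SLC2A1 (2287), SLC2A8 (477), GPI (3042), PFKL (1271), PFKFB4 (118), ALDOA (14349.9), TPI1 (7028), GAPDH (19348), PGK1 (5733), PGAM1 (2143), ENO1 (3091), ENO2 (749.98), PKM (7501), LDHA (4227), PDK2 (374), PDHA1 (717) and FBP1 (2964), and the lowest for SLC16A7 (19.3).

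The other 10 were spread over genes and groups. MDA-MB-175 low glucose replicate 4 was the lowest of its group for SLC2A8 (125) and SLC2A10 (1229.9), and low glucose replicate 2 the highest for SLC16A1 (10.1). In MDA-MB-175 at high glucose replicate 4 stood apart for SLC2A3 (8.41) and replicate 1 for PGK1 (3443). ZR-75-30 high glucose replicate 4 was the lowest for HK1 (2375), PFKP (761) and ALDOA (9482), and replicate 1 for PDP1 (56.2). HCC1500 low glucose replicate 2 was the lowest for SLC16A1 (184).

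The response to glucose differed between the 3 lines, by the interaction of line and glucose in limma adjusted over all genes, for 15 members. The adjusted p was 1.8e-13 for PFKP, 4.8e-09 for SLC2A10, 6.5e-08 for HK2, 2.5e-06 for PFKM, 1.0e-05 for LDHA, 0.00011 for SLC2A12, 0.00084 for PGAM1 and 0.0013 for SLC16A1. It was 0.0058 for PKM, 0.0065 for SLC2A1, 0.0076 for PGM1, 0.011 for HKDC1, 0.041 for PFKL, 0.041 for ENO1 and 0.042 for SLC16A7.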

How the results depend on the processing

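Over 249 values and their alternatives, 4933 of 5244 repeats kept the side of the threshold, 69 of them with another sign and called in neither fit, 148 newly passed it, 139 no longer did and 24 turned direction. Requiring a log2 change of at least 1 left 2 called members each in ZR-75-30 and MDA-MB-175 and 1 in HCC1500, 0 alike in all 3 lines, and 9 and 18 in the levels of ZR-75-30 and HCC1500 against MDA-MB-175. The 1 in HCC1500 was PFKP, tested there only through its high glucose values. HKDC1 in MDA-MB-175 and SLC16A7 in ZR-75-30, also left, would not have been tested on their low glucose values alone. Leaving out 1 sample gave 15 to 21 called members in MDA-MB-175, 20 to 23 for ZR-75-30 and 5 to 27 for HCC1500, the 5 without low glucose replicate 2 and the 27 without high glucose replicate 3. It gave 1 to 6 alike in all lines, 12 to 26 for the interaction, and 32 to 32, 30 to 31 and 32 to 33 for the levels. The count alike in all lines was 1 without any 1 of MDA-MB-175 low glucose replicates 3 and 4 and high glucose replicates 1, 3 and 4, or HCC1500 high glucose replicates 1, 2 and 4. It was 4 under equal totals, with PFKL and PFKFB4 called lower beside PFKP and PFKFB3. Of the calls, 13 of 19, 19 of 23 and 4 of 9 held in every such fit. The next 2 alternatives were chosen after seeing the data. Without HCC1500 high glucose replicate 3, scaling by median of ratios gave 22 called members in HCC1500, 25 for the interaction and 6 alike, and equal totals gave 27, 26 and 6. TPI1, whose HCC1500 call was lost by median of ratios, was not among the 6 alike there. The cause was not tested.

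Without that sample the log2 change turned to -0.21 for SLC2A8, -0.13 for TPI1, -0.19 for GAPDH, -0.12 for PGK1, -0.12 for ENO2, -0.17 for PKM and 0.46 for SLC16A7. Over all fits that left out 1 HCC1500 sample, SLC2A8 ran from -0.21 to 0.35, TPI1 from -0.13 to 0.25, GAPDH from -0.19 to 0.20, PGK1 from -0.12 to 0.070, ENO2 from -0.12 to 0.066 and SLC16A7 from -0.32 to 0.46. With equal totals as well these were -0.19, -0.10, -0.17, -0.10, -0.10, -0.15 and 0.49, and with median of ratios GAPDH was -0.071 and SLC16A7 0.58. Among the levels, equal totals turned TPI1 between HCC1500 and MDA-MB-175 (0.10) and GPI (0.26), PFKFB4 (0.022), PKM (0.12) and PDHA1 (0.11) between HCC1500 and ZR-75-30. PGK1 between the latter was -0.10 by median of ratios, -0.13 by edgeR and -0.10 by DESeq2.

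Samples of the same number in low and high glucose were hardly correlated in their deviations from group means (means 0.036, 0.012 and 0.024 in the 3 lines, range -0.037 to 0.108). Pairs of other numbers had means of -0.012, -0.004 and -0.008, lower in each line. This does not show whether samples of the same number were handled together. A fit with the number as replicate block called 21, 25 and 6 members in the lines, 13 for the interaction and 2 alike in all lines. Genes near the floor, HKDC1, LDHB in HCC1500 and SLC16A7 in ZR-75-30, rest on few reads.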
